A study of Mus musculus with 2 samples.

Results

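The barrier junction genes described here are 10 of the 19347 genes measured in the deposited table of annotated cells. They were taken as a named list: the tight junction genes Cldn5, Cldn11, Tjp1, Ocln and Cgn, the cadherins Cdh1 and Cdh5, and the connexins Gjb2, Gjb6 and Gja1. Their levels were followed over the 22 deposited clusters of cells from the dural meninges, the outer membrane of the brain, in 1 KO library and 1 het library. KO mice (Il33H2B-mcherry-KO, IL-33-/-) lacked intact Il33, and het mice (Il33H2B-mcherry-het, IL-33+/-) kept 1 intact copy, so the H2B-mcherry reporter allele was named in both genotypes. All mice were 2 weeks old (P14). Per the labels, meninges of 5 to 8 mice per genotype and sex were pooled and digested at 37 degrees C. The sorted lymphocytes (CD45+CD11b-), stromal cells (gp38+CD31-) and all viable cells were then mixed 1:1:2, so shares of cells are set in part by the sort. The comparison asks what loss of the cytokine IL-33 changes in the dura. A difference between the libraries cannot be told apart from a difference between the pools of animals or preparations.

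Tight junctions seal the space between neighbouring cells. Claudins form the sealing strands, occludin lies beside them in the membrane, and cytoplasmic proteins such as ZO-1 (Tjp1) and cingulin (Cgn) tie them to actin. Adherens junctions hold cells together through cadherins, E-cadherin (Cdh1) in epithelia and VE-cadherin (Cdh5) in blood vessels, and gap junctions are channels of connexins through which cells exchange small molecules. At the meninges, the arachnoid barrier separates the dura, whose vessels are leaky, from the cerebrospinal fluid, and the vessels of the brain itself are sealed by Cldn5.

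Levels are given in CPM, the unique molecular identifiers (UMIs, counted RNA molecules) of a gene in a cluster and library divided by all UMIs of that cluster and library, on the usual CPM scale. Brackets give exact 95% intervals, which cover counting error only. There were 6594 annotated KO cells and 5950 annotated het cells, with a median of 12203.5 and 12746.5 UMIs per cell. The libraries shared 36 barcodes, 14 of them among annotated cells. With 1 library per genotype, no test over samples was possible. Il33 itself was at 14.1 CPM in KO and 63.1 CPM in het cells of cluster 5, and at 24.5 and 110 CPM in KO and het cells of cluster 0, so it was lower in the library labelled KO.

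Cluster 5, with 372 KO and 295 het cells, held 5 of 7 arachnoid barrier markers at least 2-fold above all other cells in both libraries (Slc6a13, Ptgds, Slc22a8, Slc13a4 and Abcg2). Dpp4 and Krt18 were not, and 3 of 7 fibroblast markers (Pdgfra, Dcn and Lum) were. It is called arachnoid barrier-like here with that limit. Cluster 8, with 226 KO and 261 het cells, held 8 of 8 blood endothelial markers, and 2 of the 7 arachnoid markers (Slc22a8 and Abcg2). It also held 4 of 4 lymphatic endothelial markers in KO cells and 1 of them (Flt4) in het cells, and is called endothelial-like. Cluster 7, with 316 KO and 264 het cells, held 7 of 7 fibroblast markers, with 3 KO and 2 het of 6 pericyte or smooth muscle markers, and is called fibroblast-like. Cluster 0, the largest of these with 1155 KO and 984 het cells, held 3 of 7 fibroblast markers (Col1a1, Col1a2 and Dcn) in both libraries, and its 10 leading genes contained none of the list, so it is given by number. Cells of cluster 8 were shallower, with a median of 8395 KO and 8394 het UMIs, than cells of cluster 5, with 19134.5 and 17472 UMIs. The pooled B cell-like clusters 1, 2, 6, 10 and 16 (2169 KO and 1929 het cells, median 4967 and 4965 UMIs) were used as a background of cells not expected to use these genes. This background was uneven: cluster 6 held 376 of the 473 KO Cldn11 UMIs of these clusters, 215 of them in 5 cells, and 79 KO Gjb6 UMIs, 47 of them in 5 cells. What these UMIs come from was not tested. All clusters were made by the authors from the same cells' genes, so levels between clusters are a description and not a test.

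The sequences before the transcription start are given for 4 members, the paired connexins Gjb2 and Gjb6 and the claudins Cldn11 and Cldn5. Gjb2 and Gjb6 lie near each other on chromosome 14, on the minus strand, at 57098600 to 57104702 and 57123303 to 57133611 (GRCm38). Between them lie 18600 bases and 1 predicted protein-coding gene, Gm4491. Cldn11 lies on chromosome 3 at 31149920 to 31164324 and Cldn5, a gene of 1 exon, on chromosome 16 at 18776847 to 18778262, both on the plus strand. Each run gives the 250 bases before the start, 5′ to 3′ on the gene's strand (RefSeq, GRCm38.p6), at chr14:57104703-57104952 for Gjb2, chr14:57133612-57133861 for Gjb6, chr3:31149670-31149919 for Cldn11 and chr16:18776597-18776846 for Cldn5. Capitals mark matches on either strand to any of the following motifs. The GC box was searched as GGGCGG, the site of Sp factors. The box named for its letters CCAAT is bound by NF-Y. The TATA box was searched as TATAAA, and the E-box of epithelial repressors such as Snail as CACCTG.
Gjb2: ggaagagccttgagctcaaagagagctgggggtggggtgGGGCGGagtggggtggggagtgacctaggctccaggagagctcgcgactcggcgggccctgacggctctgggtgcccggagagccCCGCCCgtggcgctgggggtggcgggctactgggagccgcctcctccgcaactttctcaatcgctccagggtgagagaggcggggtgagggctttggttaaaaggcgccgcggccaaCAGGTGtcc
Gjb6: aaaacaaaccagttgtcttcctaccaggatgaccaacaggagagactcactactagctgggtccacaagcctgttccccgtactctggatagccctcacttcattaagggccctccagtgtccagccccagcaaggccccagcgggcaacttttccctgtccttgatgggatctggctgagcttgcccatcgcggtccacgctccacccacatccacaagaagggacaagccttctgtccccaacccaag
Cldn11: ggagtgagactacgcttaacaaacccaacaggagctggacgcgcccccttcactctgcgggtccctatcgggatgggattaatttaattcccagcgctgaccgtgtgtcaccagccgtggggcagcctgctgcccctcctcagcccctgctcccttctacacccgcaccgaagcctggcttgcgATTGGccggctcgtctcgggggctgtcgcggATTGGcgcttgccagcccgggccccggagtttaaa
Cldn5: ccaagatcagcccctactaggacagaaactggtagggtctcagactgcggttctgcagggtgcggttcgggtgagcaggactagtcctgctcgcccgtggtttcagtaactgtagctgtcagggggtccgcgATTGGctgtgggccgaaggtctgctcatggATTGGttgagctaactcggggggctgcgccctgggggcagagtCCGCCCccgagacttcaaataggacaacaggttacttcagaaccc
The Gjb2 stretch held 2 GC boxes, 1 E-box that begins 9 bases before the start, and 18 CG dinucleotides at 69.2% G and C. Its neighbour Gjb6, at 56.8% G and C with 5 CG dinucleotides, held none of the motifs searched. Cldn11 and Cldn5 held 2 CCAAT boxes each, and Cldn5 also 1 GC box. Over 32851 RefSeq stretches of the same length, 32.7% held a GC box, 33.8% a CCAAT box, 12.4% a TATA box and 17.2% an E-box, so matches of these kinds are common and are given as description only.

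In cluster 5 the members were present as a set that differed from that of the endothelial-like cluster. Of 9 members measured (at least 20 UMIs), 5 were at least 2-fold higher in cluster 5 than in cluster 8 in both libraries, namely Cldn11, Cdh1, Gjb2, Gjb6 and Gja1, where 17.3% of all 13446 genes measured were. The members at least 2-fold lower in cluster 5 than in cluster 8 in both libraries were 3, Cldn5, Ocln and Cdh5, where 12.4% of genes were. Against cluster 0, 6 of 9 members were at least 2-fold higher in cluster 5 (Cldn11, Tjp1, Ocln, Cdh1, Gjb2 and Gjb6; 7.71% of genes) and 0 were lower (4.1% of genes). Against cluster 7, 8 of 9 were higher (7.02% of genes) and 0 lower (4.47% of genes), although Cldn5 among the 8 rested on 18 KO and 10 het UMIs in cluster 5. Over clusters 5, 8, 0 and 7 with both libraries summed, 5 members were highest in cluster 5 (Cldn11, Cdh1, Gjb2, Gjb6 and Gja1) and 4 in cluster 8 (Cldn5, Tjp1, Ocln and Cdh5). Gja1 was lower in cluster 5 than in cluster 0 in the het library alone, which left 4 highest in cluster 5 there. Cgn had fewer than 20 UMIs in these clusters together.

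**Figure D1:**
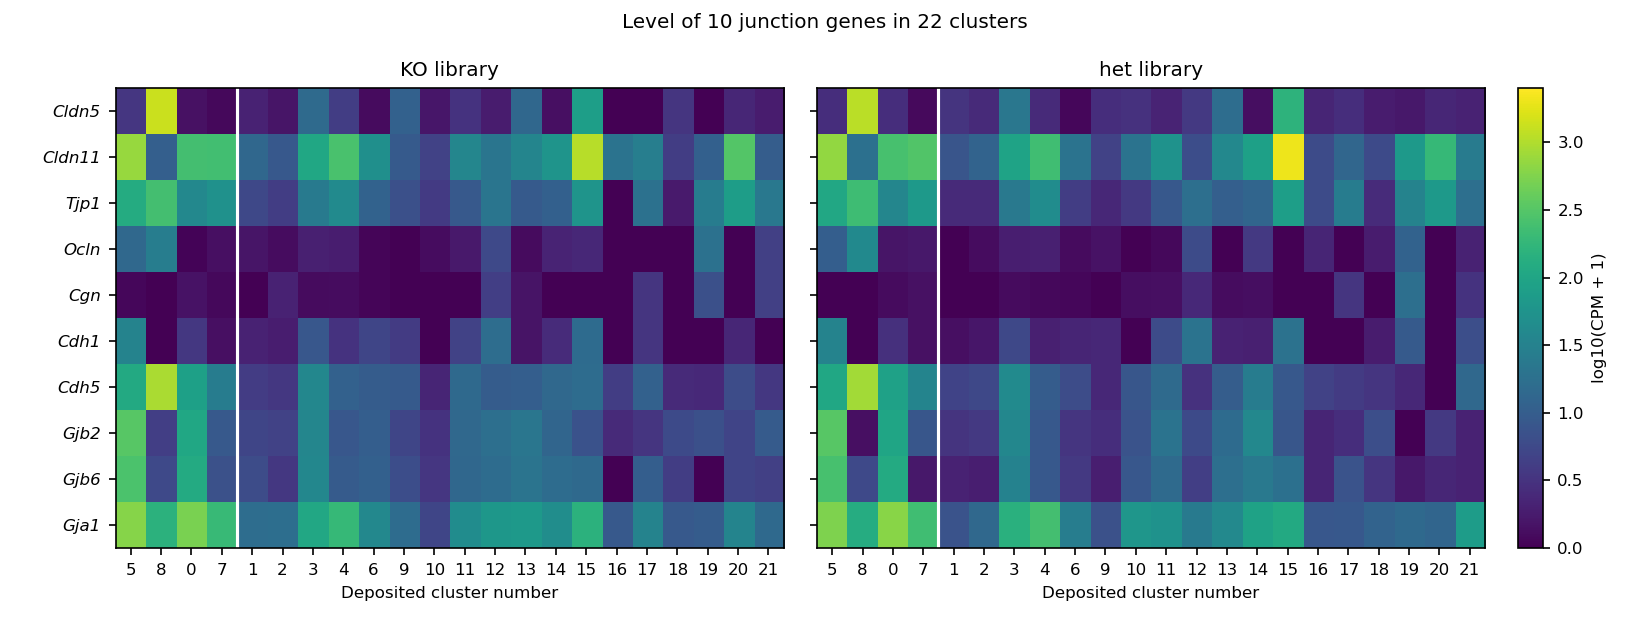
Level of the 10 genes (rows) in the 22 deposited clusters (columns) of the KO library (left) and the het library (right), as log10(CPM + 1), with clusters 5, 8, 0 and 7 left of the white line. Cldn5 and Cdh5 peak in cluster 8, Cdh1, Gjb2 and Gjb6 in cluster 5, and Cldn11 in cluster 15 with cluster 5 next.

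**Figure D2:**
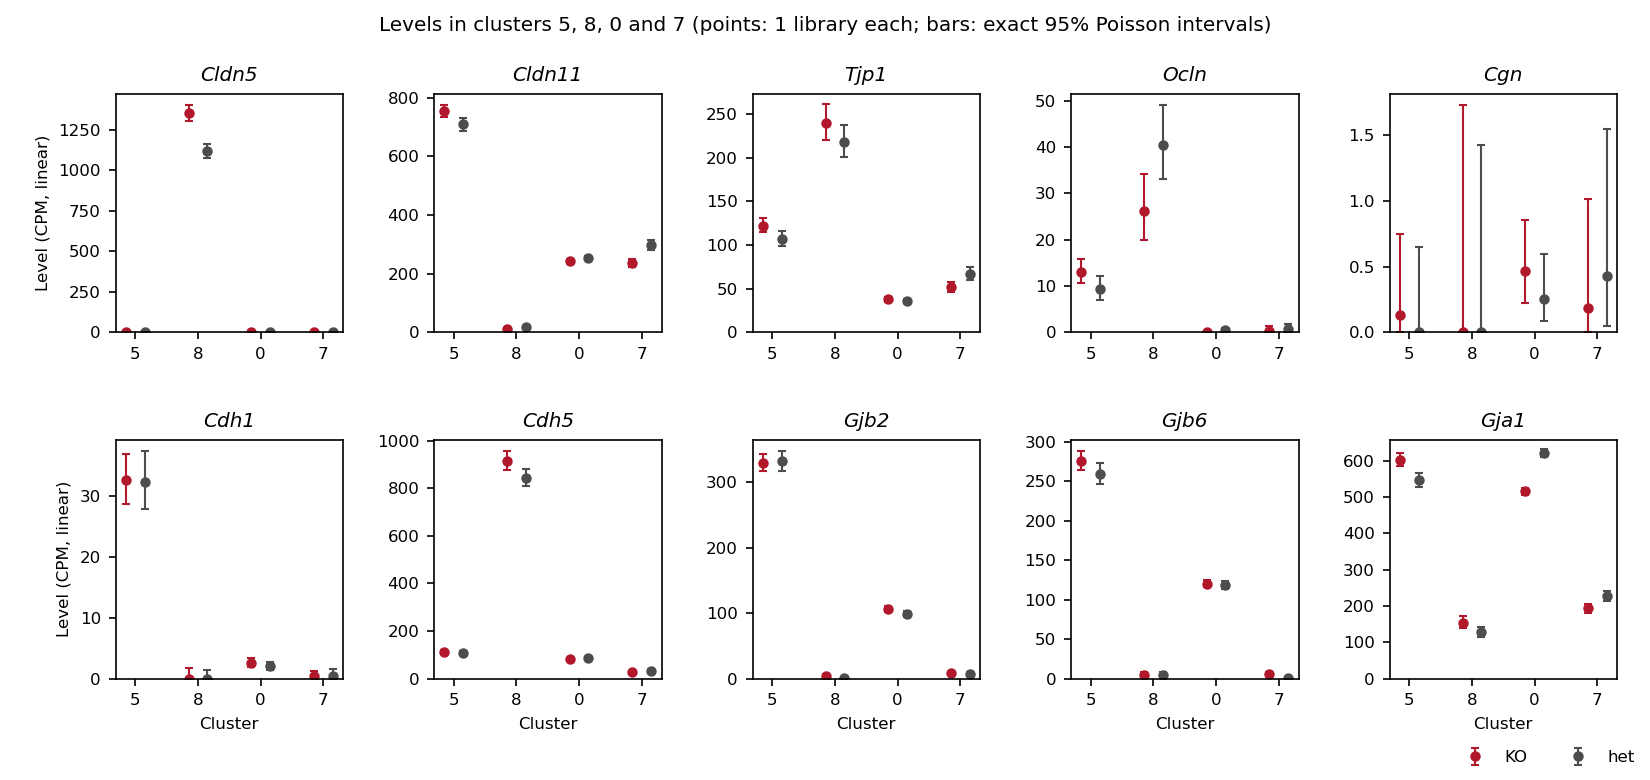
CPM of each gene on a linear axis in clusters 5, 8, 0 and 7, with KO left of het, 1 library per point and bars for exact 95% Poisson intervals. Each panel has its own axis, so levels are to be read across clusters for 1 gene and not between genes.

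The claudins divided the clusters. Cldn5, the claudin that seals brain capillaries, was at 2.42 CPM in KO and 1.77 CPM in het cells of cluster 5, against 1351 CPM [1302 to 1402] in KO and 1118 CPM [1077 to 1159] in het cells of cluster 8. Its level in cluster 5 was 559-fold lower in KO and 632-fold lower in het cells. The few UMIs in cluster 5 were not spread over its cells: 17 of 18 KO UMIs lay in 5 cells, and all 10 het UMIs in 2 cells. In clusters 0 and 7 Cldn5 was at or below 1.79 CPM, beside 0.533 CPM in KO and 1.11 CPM in het B cell-like cells. After cluster 8, Cldn5 was highest in cluster 15, at a level 9.74-fold lower, and cluster 3 came next. Clusters 3 and 13 did not differ clearly (ratio 1.25 [0.996 to 1.58]).

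Cldn11, a claudin of the arachnoid, of central nervous system myelin and of the testis, was at 755 CPM [736 to 775] in KO and 709 CPM [687 to 731] in het cells of cluster 5. It had a UMI in 94.1% of KO and 88.1% of het cells there, against 5.81% and 5.03% of B cell-like cells, and in 49.5% and 42.7% after each cell of cluster 5 was thinned to 1000 UMIs, against 1.43% and 0.934%. In cluster 8 it was at 9.85 CPM in KO and 16.98 CPM in het cells, beside 25.2 and 14.7 CPM in the pooled KO and het B cell-like cells, and 12.6 and 6.84 CPM in KO and het cells of cluster 1 among them. Its KO level in cluster 8 was thus not above that background. Its het level was above that of cluster 1 and 1.15 times that of the pool. Clusters 0 and 7 held it at an intermediate level, at 243 and 236 CPM in KO cells and 253 and 298 CPM in het cells. In the order over all clusters, cluster 15 was first (1650 CPM with both libraries summed), cluster 5 second (735 CPM), and clusters 7, 20, 0 and 4 followed at 247 to 264 CPM without a step between neighbours that its interval placed above 1.

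Cluster 15, whose leading genes included the myelin genes Mag, Mal and Mog, owed its Cldn11 to a few cells. The 12 KO and 33 het cells with a UMI of Mog, an oligodendrocyte gene, held Cldn11 at 3916 and 4194 CPM, against 97.8 and 131 CPM in the other KO and het cells of the cluster. Those cells were deeper, with a median of 32285 UMIs in KO and 28237 in het cells, against 8360 and 10449 UMIs. With Mog called after thinning to 5000 UMIs (6 KO and 22 het cells), Cldn11 was at 4344 and 4955 CPM in KO and het cells with Mog, against 391 and 206 CPM in those without. In Mog-positive cells Cldn5 and Cdh1 had 0 UMIs in both libraries. The other cells of cluster 15 held Cldn5 at 109 CPM in KO and 295 CPM in het cells, but 114 of 118 KO UMIs and 220 of 331 het UMIs lay in 5 cells of each library. This split was chosen with these values known.

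Tjp1 encodes ZO-1, a scaffold of both tight and adherens junctions. It was at 122 CPM [114 to 130] in KO and 107 CPM [99.0 to 116] in het cells of cluster 5, and at 240 and 218 CPM in KO and het cells of cluster 8. Its level in cluster 5 was 3.23-fold that of cluster 0 in KO and 3.00-fold in het cells. Tjp1 was above the B cell-like level of 6.29 CPM in KO and 2.57 CPM in het cells in all of clusters 5, 8, 0 and 7.

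Ocln encodes occludin, a membrane protein of tight junction strands. It was found in clusters 5 and 8 and was near its floor in clusters 0 and 7: 13.03 CPM [10.6 to 15.9] in KO and 9.37 CPM [7.02 to 12.3] in het cells of cluster 5, and 26.3 CPM [19.8 to 34.1] in KO and 40.5 CPM [33.1 to 49.0] in het cells of cluster 8. In cluster 0 it rested on 2 KO and 11 het UMIs, and in cluster 7 on 2 and 3. Ocln in cluster 5 was 2.02-fold lower than in cluster 8 in KO and 4.32-fold lower in het cells. Cluster 19 (41 KO and 84 het cells) lay between them at 12.9 CPM with both libraries summed, a level not separated from that of cluster 5 (ratio 1.13 [0.724 to 1.70]).

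Cgn encodes cingulin, which links tight junctions to the actin cortex of epithelia. It had 1 KO and 0 het UMIs in cluster 5 and 0 UMIs in cluster 8 in both libraries. With 3 counts as the limit that 0 UMIs allows, it was under 0.530 CPM in het cells of cluster 5, and under 1.41 CPM in KO and 1.16 CPM in het cells of cluster 8. Its highest level was 12.9 CPM in cluster 19 (28 UMIs, both libraries summed). At this depth Cgn was not detectable as a gene of cluster 5 or cluster 8.

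Cdh1 encodes E-cadherin, the adherens junction protein of epithelia. It was at 32.6 CPM [28.7 to 37.0] in KO and 32.4 CPM [27.8 to 37.4] in het cells of cluster 5, its highest level over the 22 clusters, and 1.94-fold above the next, cluster 12. Cluster 8 had 0 Cdh1 UMIs in both libraries, so that Cdh1 was at least 23.2-fold higher in cluster 5 in KO and at least 28.0-fold higher in het cells, against 3 counts per library. In clusters 0 and 7 it was at or below 2.56 CPM, beside 2.08 CPM in KO and 0.702 CPM in het B cell-like cells. Cluster 5 held 46.6% of all Cdh1 UMIs of annotated KO cells and 42.7% of those of het cells, although it held 5.64% and 4.96% of the cells.

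Cdh1 was found in a minority of cluster 5, in 78 of 372 KO cells (21.0% [16.9 to 25.5]) and 48 of 295 het cells (16.3% [12.2 to 21.0]). Those cells differed from the rest of the cluster in part of the list, with Cldn11 and Ocln higher in both libraries. To set depth aside, cells of cluster 5 were split by whether a Cdh1 UMI was left after thinning to 5000 UMIs, with levels taken from all UMIs of those cells, which gave 33 positive and 333 negative KO cells and 24 positive and 268 negative het cells, a split chosen with these values known. Ocln was 2.80-fold higher [1.62 to 4.63] in Cdh1-positive than in Cdh1-negative KO cells and 5.76-fold higher [3.13 to 10.3] in het cells. Cldn11 was at 1209 CPM in positive and 714 CPM in negative KO cells, and at 1242 and 654 CPM in positive and negative het cells. Tjp1 was at 229 CPM in positive and 112 CPM in negative KO cells, but its interval in het cells included 1 (ratio 1.29 [0.99 to 1.65]). Gja1 was 1.81-fold higher in positive KO cells and 1.21-fold higher in positive het cells. Another claudin, Cldn1, was not higher in positive cells, at 0.31 times [0.063 to 0.932] the negative level in KO on 3 UMIs and 1.10 times [0.341 to 2.78] in het cells, and Cldn5 had 0 UMIs in positive cells.

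Neither Gjb2 nor Gjb6 was higher in Cdh1-positive cells beyond counting error. Gjb2 was at 0.90 times [0.77 to 1.04] the level of negative cells in positive KO cells and 1.01 times [0.86 to 1.18] in positive het cells. Gjb6 was at 0.834 times [0.701 to 0.986] in KO and 1.13 times [0.952 to 1.34] in het cells, so its direction differed by library. Of the arachnoid markers, Dpp4, a peptidase of the arachnoid barrier layer, was 6.95-fold higher in positive KO cells and 7.77-fold higher in positive het cells. Abcg2, a drug efflux pump, was 1.93-fold and 2.41-fold higher. Slc6a13, a GABA and taurine transporter, went the other way: 67.45 CPM in positive and 372 CPM in negative KO cells, and 94.9 and 432 CPM in positive and negative het cells. The fibroblast gene Dcn (decorin) was at 0.53 times the negative level in positive KO cells and 0.40 times in positive het cells. Ptgds, the leading gene of the cluster, turned with the library, at 0.894 times [0.874 to 0.914] the negative level in KO and 2.67 times [2.61 to 2.73] in het cells. Slc13a4 (1.06 in KO and 1.21 in het) and Slc22a8 (1.09 and 1.74) had intervals that included 1, except Slc22a8 in het cells. The arachnoid markers of cluster 5 thus did not move as a group with Cdh1.

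**Figure D3:**
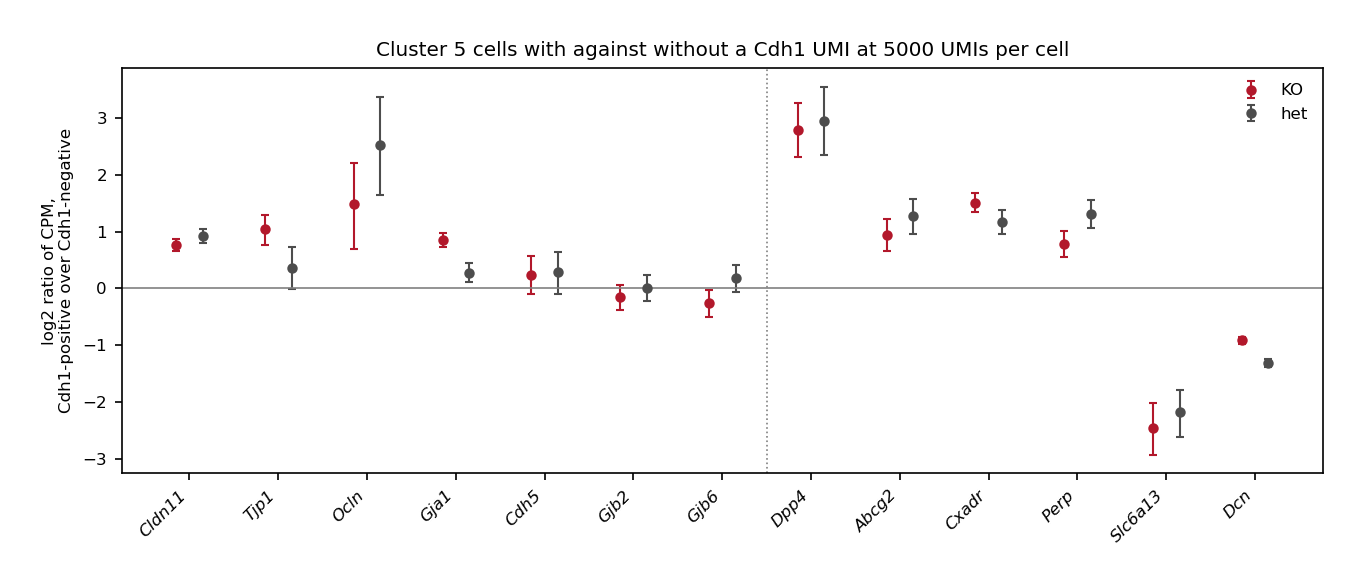
Ratio of CPM, on a log2 axis, between cluster 5 cells with and without a Cdh1 UMI after thinning to 5000 UMIs, with KO points left of het points and bars for 95% counting intervals. Left of the dotted line are other members of the list, of which Ocln has the highest ratios (2.80 in KO, 5.76 in het); right of it are markers and other junction genes, where Dpp4 is above 0 and Slc6a13 and Dcn are below 0 in both libraries.

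Cdh5 encodes VE-cadherin, the adherens junction protein of blood and lymphatic vessels. It was present in cluster 5, at 114 CPM [106 to 122] in KO and 106 CPM [97.9 to 115] in het cells, against 915 CPM [875 to 956] in KO and 844 CPM [809 to 880] in het cells of cluster 8, where it was highest. It was also present in cluster 0, at 84.03 and 87.7 CPM. It had a UMI in 76.3% of KO and 68.1% of het cells of cluster 5, and in 62.5% and 64.8% of cluster 0, against 2.35% of KO and 2.75% of het B cell-like cells. Cluster 7 held less, 25.6 CPM in KO and 33.7 CPM in het cells.

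Most other endothelial genes stood far lower against their cluster 8 level. Cdh5 in cluster 5 stood at 12.4% of its cluster 8 level in KO and 12.6% in het cells, while Pecam1 (an endothelial adhesion protein) stood at 0.33% and 0.57%, Cldn5 at 0.18% and 0.16%, Plvap at 0.10% and 0.15%, and Kdr (a receptor for vascular growth factor) at 0.84% and 0.96%. Emcn (endomucin) was the highest of the others shown, at 2.25% and 3.05%, and like Cdh5 it was above the background: 27.3 CPM in KO and 37.1 CPM in het cells of cluster 5, against 0.959 and 2.93 CPM in KO and het B cell-like cells. For each 100 Cdh5 UMIs there were 2.13 KO and 1.66 het Cldn5 UMIs in cluster 5, against 148 KO and 132 het in cluster 8. In KO cells of cluster 5 with no UMI of Pecam1, Kdr, Tie1, Egfl7 or Emcn (180 cells) Cdh5 was at 114 CPM [103 to 126], the same as in the 192 cells with one (114 CPM [104 to 124]). In het cells it was at 105 CPM in the 142 without and 107 CPM in the 153 with such a UMI. In cluster 0 it was lower in cells without one, at 79.7 CPM in KO and 80.3 CPM in het cells, against 94.7 and 103 CPM in cells with one. Cdh5 overlaps the antisense gene Gm29682 near its start (chromosome 8, 104101625 to 104144511, plus strand, GRCm38), and the use of strand in counting is unknown here.

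**Figure D4:**
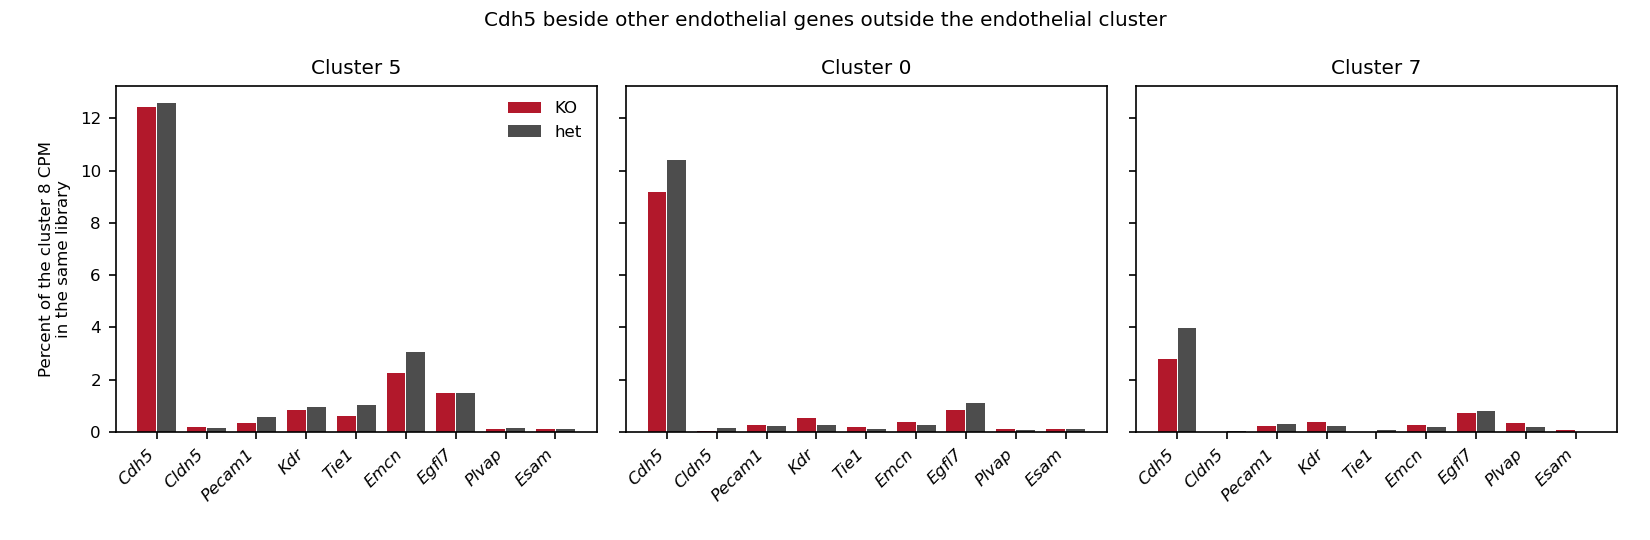
Level of Cdh5 and 8 other endothelial genes in clusters 5, 0 and 7 as a percent of the level in cluster 8 of the same library, with KO bars left of het bars. Cdh5 stands at 12.4% (KO) and 12.6% (het) in cluster 5, and the other genes in that panel stay at or below the 3.05% of Emcn in het cells. The blood endothelial marker Tek is not drawn. In cluster 7 it stands at 12.0% (KO) and 3.15% (het), where Cdh5 stands at 2.80% and 3.99%.

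Gjb2 and Gjb6 encode the connexins Cx26 and Cx30, partners in gap junctions of epithelia and leptomeninges. Gjb2 was at 329 CPM [316 to 342] in KO and 332 CPM [317 to 347] in het cells of cluster 5, and at 106 and 98.8 CPM in KO and het cells of cluster 0. Gjb6 was at 276 CPM [264 to 288] in KO and 260 CPM [246 to 273] in het cells of cluster 5, and at 120 and 119 CPM in cluster 0. Clusters 5 and 0 thus ranked first and second for both genes, with cluster 3 next at 35.9 CPM for Gjb2 and 34.2 CPM for Gjb6, libraries summed. In cluster 8 both rested on few UMIs: Gjb2 was at 3.28 CPM in KO and 0.386 CPM in het cells, against 5.81 and 3.04 CPM in KO and het B cell-like cells, and Gjb6 at 4.69 and 4.63 CPM, against 6.13 and 2.87 CPM.

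Gjb6 was found more often in cells with Gjb2 than in cells without it. After thinning to 5000 UMIs, Gjb6 was found in 74.4% of the KO cells of cluster 5 with a Gjb2 UMI and 47.6% of those without, and in 75.8% and 41.2% of het cells. In cluster 0 the shares were 50.6% and 19.8% in KO cells and 64.9% and 17.2% in het cells. Such an excess was not particular to this pair. Gjb2 was found in 66.1% of KO cells of cluster 5 with Cldn11 and 46.4% of those without, and in 60.1% and 43.8% of het cells. Gja1 was found in 81.6% of KO cells of cluster 5 with Cdh5 and 71.2% of those without, and in 73.5% and 58.2% of het cells. Across the 22 clusters, each was among the genes most similar to the other (r = 0.937).

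Gja1 encodes Cx43, the most widely used connexin of fibroblasts, astrocytes and heart muscle. It was at 602 CPM [585 to 620] in KO and 546 CPM [527 to 565] in het cells of cluster 5, and at 516 CPM [507 to 526] in KO and 620 CPM [609 to 631] in het cells of cluster 0. The order of the clusters turned with the library: Gja1 in cluster 5 was 1.17-fold [1.13 to 1.21] that of cluster 0 in KO cells and 0.88-fold [0.846 to 0.916] in het cells. Summed over libraries the clusters were at 578 and 566 CPM. Cluster 7 was at 193 CPM in KO and 226 CPM in het cells, and cluster 8 at 154 and 127 CPM, so Gja1 was the connexin of the list that the endothelial-like cluster also held, above the 22.7 and 26.0 CPM of KO and het B cell-like cells.

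Among clusters 5, 8, 0 and 7, the median cell of cluster 5 held the most members. At 5000 UMIs per cell the median was 4 members in KO and 4 in het cells of cluster 5, 3 and 3 in cluster 8, 2 and 2 in cluster 0, and 1 and 1 in cluster 7. At least 5 members were found in 33.1% of KO and 26.4% of het cells of cluster 5. The KO and het shares were 5.29% and 4.95% in cluster 8, 6.29% and 6.85% in cluster 0, and 0.318% and 0% in cluster 7.

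Between genotypes, the count of members past 1.5-fold in cluster 5 was near the share over all genes and does not set the members apart. All 9 measured members stayed within 1.5-fold between KO and het in cluster 5 (0 past that fold, where 8.97% of 12726 genes were, 3.23% higher and 5.74% lower in KO), with ratios from 0.992 for Gjb2 to 1.39 for Ocln. The median log2 ratio was 0.10, against -0.02 over all genes measured, and 8 of the 9 ratios were above 1. Ocln at 1.39 had a counting interval of 0.985 to 1.98, Cdh1 was at 1.01 [0.829 to 1.23] and Gjb6 at 1.06 [0.995 to 1.14]. Cldn11 at 1.07 [1.02 to 1.11], Tjp1 at 1.14 [1.03 to 1.26] and Gja1 at 1.10 [1.05 to 1.16] were the 3 whose intervals excluded 1. With each cell weighted equally the count past 1.5-fold was 2, Cldn5 at 1.52 and Ocln at 1.51.

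In cluster 8, 2 of 7 measured members were past 1.5-fold (11.8% of 10520 genes were), both at least 1.5-fold lower in KO (6.78% of genes) and 0 higher (5.07% of genes). Ocln was at 26.3 CPM in KO and 40.5 CPM in het cells, a ratio of 0.648 [0.460 to 0.905], and in 33 of 226 KO and 43 of 261 het cells. Cldn11 was at a ratio of 0.580 [0.328 to 0.996] on 21 KO and 44 het UMIs, near the B cell-like levels described above. Female-labelled cells alone gave Cldn11 a ratio of 1.43 and male-labelled cells 0.216, and neither gene was past 1.5-fold once cells with a UMI of Slc6a13, Pdgfra or Ptprc, or at least 10 of Col1a1, were left out (0.766 for Cldn11 and 0.670 for Ocln). Of the other members there, Cldn5 was at a ratio of 1.21 [1.15 to 1.27] and Cdh5 at 1.08 [1.02 to 1.15]. Of the 8 blood endothelial markers, only Egfl7 and Plvap were higher in KO. Egfl7 was at 1603 CPM in KO and 1548 CPM in het cells, and Plvap at 1303 and 1262 CPM. The other markers were lower in KO, among them Flt1 at 1096 CPM in KO and 1269 CPM in het cells and Tie1 at 270.1 and 322.9 CPM. Lymphatic markers also differed between the libraries of cluster 8, with a summed level of 261 CPM in KO and 86.04 CPM in het cells and none at 0, and their part in these ratios was not tested.

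In cluster 0, 1 of 8 measured members was past 1.5-fold (7.17% of 13966 genes were), with 1 lower in KO (4.5% of genes) and 0 higher (2.68% of genes). Cldn5 was lower in KO at 0.234 [0.0989 to 0.496], on 9 KO and 35 het UMIs, of which 28 het UMIs lay in 5 cells. Gja1 was at 0.832 [0.811 to 0.854] there and Gjb2 at 1.08 [1.01 to 1.15]. In cluster 7, 1 of 6 was past 1.5-fold (11.4% of 12004 genes were), with 1 higher in KO (7.75% of genes) and 0 lower (3.65% of genes). Gjb6 was higher in KO at 9.33 [2.93 to 47.5], on 33 KO and 3 het UMIs. Its levels there, 6.001 CPM in KO and 0.643 CPM in het cells, stood beside 6.13 and 2.87 CPM in the pooled KO and het B cell-like cells. The Gjb6 ratio went both ways among the B cell-like clusters. It was 4.57 [1.34 to 24.1] in cluster 1 and 3.76 [2.28 to 6.49] in cluster 6, but 0.338 [0.130 to 0.788] in cluster 10. Cldn11, Tjp1, Cdh5 and Gja1 in cluster 7 were between 0.762 and 0.855. Of the 4 calls in the 4 clusters, the Ocln difference in cluster 8 was the one at levels far above those of B cell-like cells (0.266 CPM in KO and 0.234 CPM in het). It too rested on few cells: 21 of 56 KO and 36 of 105 het Ocln UMIs lay in 5 cells of each library.

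**Figure D5:**
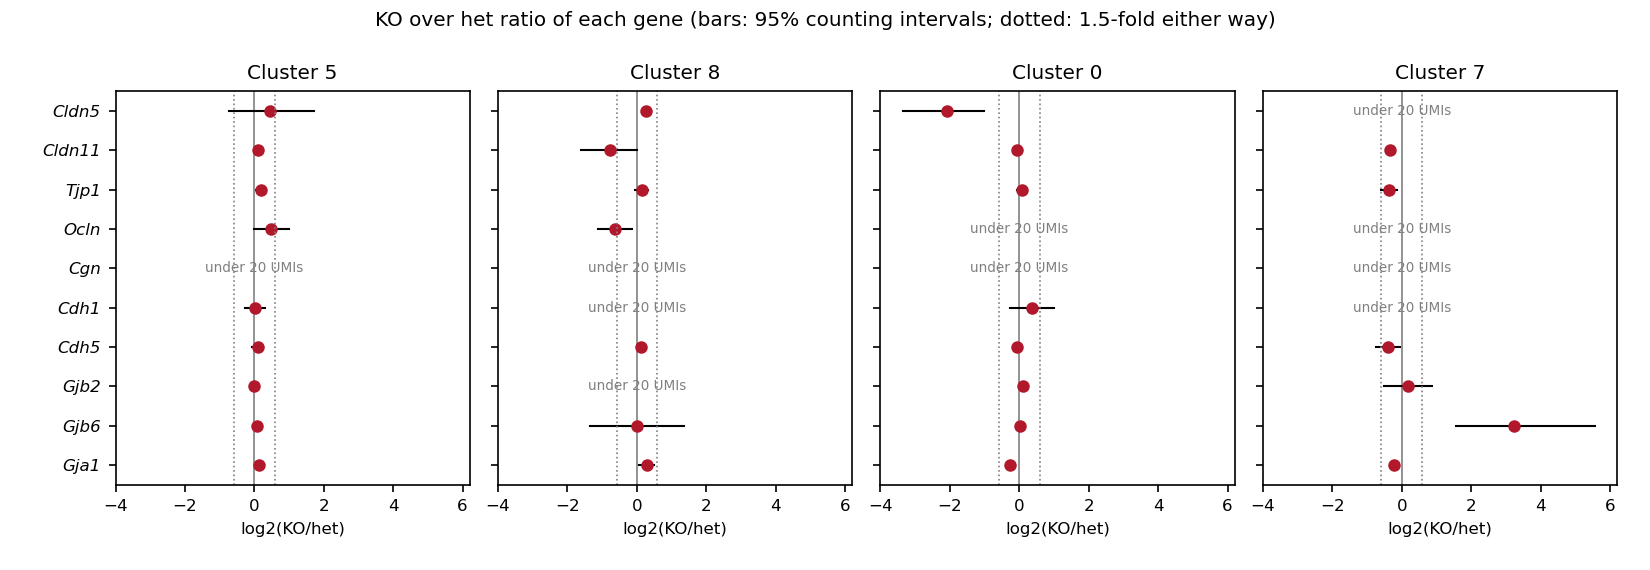
KO over het ratio of each measured gene in clusters 5, 8, 0 and 7 on a log2 axis, with bars for 95% counting intervals and dotted lines at 1.5-fold either way. In cluster 5 all 9 points lie between the dotted lines; Cldn11 and Ocln in cluster 8 and Cldn5 in cluster 0 lie left of them and Gjb6 in cluster 7 lies right of them.

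The endothelial-like cluster was itself mixed in Cldn5. At 5000 UMIs, 126 of 189 KO and 136 of 222 het cells kept a Cldn5 UMI. Cells with it held more Ocln (33.5 CPM with and 9.38 CPM without in KO, 66.3 and 6.10 CPM in het) and more Tjp1 (ratio 1.496 in KO and 1.84 in het). Cdh5 differed less. Its interval included 1 in KO cells (ratio 1.04 [0.94 to 1.15]), and it was higher with Cldn5 in het cells (1.19 [1.09 to 1.31]). The brain endothelial transporter Slco1c1 was at 164 CPM in KO cells with Cldn5 and 0 UMIs in those without, and at 139 and 1.02 CPM in het cells with and without it. These UMIs lay in few cells: Slco1c1 was found in 9.52% of KO and 12.5% of het cells with Cldn5, and the transporter Mfsd2a in 9.52% and 8.82% of them and in no cell without Cldn5. Plvap, the diaphragm protein of leaky vessels, was at 0.45 times the level of Cldn5-negative cells in Cldn5-positive KO cells and 0.53 times in het cells. This split and its genes were chosen with these values known.

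Of 63 other junction genes in 6 lists, 61 were in the table and 39 had at least 20 UMIs in cluster 5 or in cluster 8. Of those, 5 were at least 4-fold higher in cluster 5 than in cluster 8 in both libraries, where 9.84% of all 13062 genes were. Cxadr, a tight junction receptor, was at 245 CPM in KO and 212 CPM in het cells of cluster 5, against 4 KO and 1 het UMIs in cluster 8. The adherens cadherin Cdh11 was at 568 and 485 CPM, against 36.1 and 44.4 CPM in cluster 8. The desmosomal gene Perp was at 176 and 151 CPM, against 2 UMIs in each library of cluster 8. Cldn1 (14.2 CPM in KO and 8.49 CPM in het) and Cldn10 (3.36 and 3.89 CPM) had 0 KO and at most 2 het UMIs in cluster 8. Of these genes, only Cxadr and Perp were also higher in cluster 5 than in clusters 0 and 7 in both libraries. Cdh11 was at 891 CPM in KO and 951 CPM in het cells of cluster 0, and at 690 and 764 CPM in cluster 7. Cldn10 was higher in cluster 0 (8.84 CPM in KO and 11.2 CPM in het), and Cldn1 in cluster 7 (19.3 and 21.4 CPM).

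The 11 at least 4-fold lower in cluster 5 than in cluster 8, where 6.02% of genes were, were Marveld2, F11r, Jam2, Cdh13, Pecam1, Esam, Icam2, Mcam, Ptprb, Gja4 and Gja5. Of these, 5 came from a list of endothelial contact genes, and Pecam1 was also a marker used to name cluster 8. Their number thus follows in part from how the lists were made and is a description only. F11r, which encodes junctional adhesion molecule A, was at 18.8 CPM in KO and 15.6 CPM in het cells of cluster 5, against 232 and 225 CPM in cluster 8. Esam, an endothelial adhesion molecule, was at 0.806 and 0.707 CPM, against 726 and 684 CPM. The vascular connexin Gja4 was at 6.58 and 3.18 CPM in cluster 5, against 120 and 120 CPM in cluster 8.

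Between genotypes, 5 of 33 other junction genes measured in cluster 5 were past 1.5-fold, 2 higher and 3 lower in KO, with a median log2 ratio of 0.00. Each had an interval that excluded 1, as 4.61% of all genes measured there did at that fold. Cldn1, a claudin of epithelial barriers, was at 1.68 [1.18 to 2.41] on 106 KO and 48 het UMIs, and Gja4 at 2.07 [1.18 to 3.77] on 49 and 18. Lower in KO were Panx1 at 0.633 [0.442 to 0.904], which encodes a channel protein related to connexins, Pecam1 at 0.557 [0.306 to 0.999] and the connexin Gjc3 at 0.380 [0.159 to 0.850] on 10 and 20 UMIs. The Pecam1 ratio rested on 22 KO and 30 het UMIs. Its levels of 2.96 and 5.30 CPM stood beside 2.51 and 2.20 CPM in KO and het cells of cluster 0. KO and het B cell-like cells held Pecam1 at 55.0 and 60.6 CPM, on 1032 and 1035 UMIs. Those cells are thus not a background for this gene. In cluster 8, 3 of 32 were past 1.5-fold, 0 higher and 3 lower in KO, beside the 11.8% of all genes given above.

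The genes whose pattern over the 22 clusters was most like that of each member, by Pearson's r of log2(CPM + 1) with both libraries summed among 13113 genes, are given as description, since clusters share libraries and differ in depth. They were Apln (r = 0.946), Ptprb and Klhl4 for Cldn5; Matn2 (0.945), Spock3 and Fxyd1 for Cldn11; Fermt2 (0.966), Agrn and Cdr2l for Tjp1. For Ocln they were Podxl (0.828), Galnt15 and Stap2, and for Cgn Spock1 (0.961), Ckmt1 and Cldn3. For Cdh1 they were C2cd4b (0.805), Aifm3 and Serpind1, and for Cdh5 Slco2a1 (0.933), Paqr5 and Clec1a. Asgr1 (0.967), Gjb6 and Slc13a4 were nearest to Gjb2, and Gjb2, Asgr1 (0.918) and Slc13a4 to Gjb6. Plpp3 (0.947) and Lhfpl2 were among those nearest to Gja1.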

How the data were processed

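Single-cell RNA sequencing (10x Genomics) was used on dural meninges in 1 KO and 1 het library. Cell Ranger 3.0.2 and mm10 are named per the submitters' processing notes; the annotation used and any use of strand were not given in the sources used here. Deposited were UMI counts, not normalized, per gene and cell, in a table of annotated cells with the authors' clusters and sex labels and in 10x matrices. For every member, that table and the matrices held equal counts in all cells. Cells were not filtered or clustered again. UMIs were summed per cluster and library and scaled to CPM. With 1 library per genotype, no test or p-value was computed; 95% intervals (Poisson for levels, Clopper-Pearson for shares, conditional binomial for ratios) cover counting error only. Genes with at least 20 UMIs over both groups compared were measured, and a ratio of at least 1.5 either way was past the fold. A count of 0 was given a limit of 3 counts. Scrublet's default threshold, run through scanpy 1.11.5, called 0% of KO and 0.0183% of het barcodes and had not worked, so the 5% of highest score were left out as an alternative. Shares were recomputed with cells thinned to 500, 1000 and 5000 UMIs.

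Named genes were all members, the 3 genes most correlated with each (among genes with at least 200 UMIs), and other junction genes at least 4-fold apart between clusters 5 and 8 in both libraries or past 1.5-fold between genotypes in cluster 5 with an interval that excluded 1. Some genes that this rule or the leading-gene lists give are not reported here. The members and lists were chosen with earlier results of these data known. The ratio code was tested on simulated data. Gene positions are from GENCODE on GRCm38, and promoter sequences from RefSeq on GRCm38.p6. Python 3.11.15, NumPy 2.4.6, SciPy 1.17.1, pandas 2.3.3 and Matplotlib 3.10.9 were used.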

Additional observations from a re-analysis of the deposited data

Results flagged for a closer look

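Several genes had a KO over het ratio that differed between clusters or between female-labelled and male-labelled cells, with counting intervals on opposite sides of 1. The differences were not tested, since each genotype had 1 library. Cldn5 was at 1.21 in cluster 8 and 0.234 in cluster 0, a ratio of ratios of 5.17, with 35 het UMIs in cluster 0. Cldn11 was at 1.07 in cluster 5, against 0.580 in cluster 8 (ratio of ratios 1.84) and 0.792 in cluster 7 (1.35). Tjp1 differed by 1.47 between clusters 5 and 7, and Cdh5 by 1.42 between clusters 8 and 7. Gja1, the widespread connexin, was above 1 in clusters 5 and 8 and below 1 in clusters 0 and 7: the ratios of ratios were 1.33 for cluster 5 against 0, 1.29 for 5 against 7, 1.46 for 8 against 0 and 1.42 for 8 against 7.

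Gjb2 in cluster 5 was at 0.836 [0.766 to 0.912] in female-labelled and 1.17 [1.07 to 1.27] in male-labelled cells, a ratio of ratios of 0.716. Cdh5 in cluster 7 was at 1.499 [1.05 to 2.15] in female-labelled and 0.419 [0.296 to 0.588] in male-labelled cells, a ratio of ratios of 3.57.

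Barcodes outside the annotated table, 5452 in KO and 4986 in het, also held these genes, at a higher level in KO for Tjp1 (ratio 1.16 [1.05 to 1.28]), Cdh1 (2.15 [1.70 to 2.74], on 245 KO and 102 het UMIs), Gjb2 (1.41 [1.29 to 1.54]) and Gjb6 (1.37 [1.26 to 1.504]). Cldn5 (0.615 [0.545 to 0.695]) and Cldn11 (0.677 [0.646 to 0.709]) were lower in KO, and the intervals of Ocln, Cgn, Cdh5 and Gja1 included 1. These barcodes carry no cluster, so a different mix of cells and a different level per cell cannot be told apart.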

How the results depend on the processing

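No paired analysis was possible because the genotypes share only replicate number 1. Of 30 KO over het ratios, 30 stayed within their counting interval with the 10x matrices, with rescaling or without the highest Scrublet scores, but 20 of 29 did in female-labelled and 21 of 30 in male-labelled cells. In cluster 5 the count past 1.5-fold was 0, against 2 with the mean of each cell's CPM (Cldn5 and Ocln) and 1 in male-labelled cells (Ocln, 1.94). In cluster 8 it was 2, against 0 without cells holding markers of another class and 0 in female-labelled cells. In cluster 0 it was 1, against 2 with the mean of each cell's CPM, 2 without cells holding markers of another class, 0 in male-labelled cells and 3 when members with at least 1 UMI were measured. In cluster 7 it was 1, against 2 in male-labelled cells. Cldn11 in cluster 8 reversed, to 1.43 [0.650 to 3.13] in female-labelled cells. The cause of these changes was not tested. The 4 members highest in cluster 8 were 4 under every alternative run. The 5 highest in cluster 5 became 4 in het cells alone, in female-labelled cells and with the mean of each cell's CPM, where Gja1 was higher in cluster 0. Depth limits Cgn in clusters 5, 8, 0 and 7, Ocln in clusters 0 and 7 and Cdh1 in cluster 7, where UMIs were few.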
